A study of Saccharomyces cerevisiae with 137 samples.

Results

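The respiratory chain and the ATP synthase of Saccharomyces cerevisiae were followed through a cold shock and the return to warmth. The set holds the 33 genes for nuclear-encoded subunits of complexes II to V and for cytochrome c, chosen by their standard symbols from the list of subunits and matched to 33 of the 6178 open reading frames on the arrays. Complex II has 4 members, complex III has 9, complex IV has 8, complex V has 11, and cytochrome c is represented by CYC1. The rule that picks them uses no measured value, though the members were chosen with earlier results of these data known.

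Electrons from succinate enter this chain at complex II, those from NADH at the single-subunit dehydrogenases Ndi1 and Nde1 that baker's yeast uses in place of a complex I, and both pass through ubiquinone, complex III, cytochrome c and complex IV to oxygen while complex V uses the resulting proton gradient to make ATP. Many of the nuclear genes for these subunits are activated by the Hap2/3/4/5 complex, which binds CCAAT boxes, and Hap4 is its activating and glucose-regulated subunit. Glucose, the main carbon source of rich YEPD medium, represses this transcription while cells ferment.

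Each of 137 arrays compared, with 2 dyes, RNA of a culture sampled after a temperature shift with RNA of the same flask before the shift (t0). Cultures grown at 30 °C were held at 13 °C and sampled after 15, 30 and 60 min (t15, t30, t60), then returned to 30 °C and sampled when 90 and 120 min had passed since the start (t90, t120). The strains were delHAP4 (4 flasks, 18 arrays), delSWI4 (16 arrays, with no t15), delZAP1, delCIN5, delGLN3 and delHMO1 (20 arrays each), and wild type (WT, 5 flasks, 23 arrays), 30 flasks in all. Each deletion strain lacks 1 gene for a transcriptional regulator in the BY4741 background and was grown in YEPD with G418, whereas WT was grown in YEPD without the drug. WT flask 0 was BY4739 and the other WT flasks were BY4741. WT flasks 0 and 1 were measured on GCAT chips (9 arrays) and all other flasks on Ontario chips (128 arrays). Flask 1 of delHAP4 is represented by t15, t30 and t60, so that 3 delHAP4 arrays were analysed at t90 and 3 at t120.

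The deposited value sets the shifted sample over its t0 as a log ratio, scaled so that 1 unit is about 1 scaled median absolute deviation of all features on that array. It is called the scaled log ratio here, and the mean of it over a set of members on 1 array is called a score. No fold changes can be read from it, and neither can a strain's level before the shift, because every flask is set against its own t0. Flasks were taken as replicates, and the arrays of a flask were allowed to correlate. The labels say that 2 flasks of a strain were grown on a day without naming them, so a shared day is not in the fits. The p-values rest on the spread between arrays, with a common correlation for arrays of the same flask, which also share their t0.

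Arrays carried between 5041 and 6158 measured features, 9 of the 33 members had a value on every array, and 1.86% of the members' values were missing. On 4 arrays the profile over all features correlated better with the mean of the other temperature phase than with its own, namely delHAP4 t90 flask 4, delGLN3 t60 flask 2, and delHMO1 t60 and t90 of flask 3. For the delHAP4 array Spearman's rho was −0.168 with its own phase and 0.617 with the other one. The t15 arrays of delHMO1 flasks 3 and 4, labelled in the same dye orientation, correlated at r = −0.476, so the direction of the delHMO1 values is not settled. All slides of delHAP4 and those of delSWI4 flasks 2 to 4 were uncoated (30 arrays), so slide coating and deletion of HAP4 cannot be told apart within delHAP4 itself.

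The 33 members were, as a group, somewhat lower than at t0 during the cold and higher than at t0 after the return to 30 °C, in delHAP4 as in most other strains. In delHAP4 the score over all members averaged −0.34 ± 0.1 at t15, −0.44 ± 0.07 at t30 and −0.43 ± 0.1 at t60 (SD, n = 4 each), then 0.25 ± 0.43 at t90 and 0.65 ± 0.08 at t120 (n = 3 each). In WT it averaged −0.4 ± 0.07 at t15 (n = 4), −0.43 ± 0.33 at t30 (n = 5), −0.3 ± 0.18 at t60 (n = 4), 0.19 ± 0.33 at t90 and 0.64 ± 0.59 at t120 (n = 5 each). The means of both strains lay close together at every time, within the larger of their SDs. Since these are bulk samples on a relative scale, fewer cells of a kind and less RNA per cell cannot be told apart.

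Array by array, the delHAP4 score was below 0 on all 8 arrays at t30 and t60, from −0.56 to −0.34 with a median of −0.41. It was above 0 on 5 of the 6 arrays at t90 and t120, from −0.23 to 0.73 with a median of 0.58. The exception was t90 flask 4, the array whose whole profile resembled the cold phase, and without it the t90 mean was 0.48 ± 0.16 (n = 2). In the other 6 strains 42 of 49 cold arrays were below 0, with a range of −0.88 to 0.43, and 42 of 50 recovery arrays were above 0, with a range of −0.38 to 1.72. Every delHAP4 score thus lay inside the range of the other strains in its phase.

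**Figure D1:**
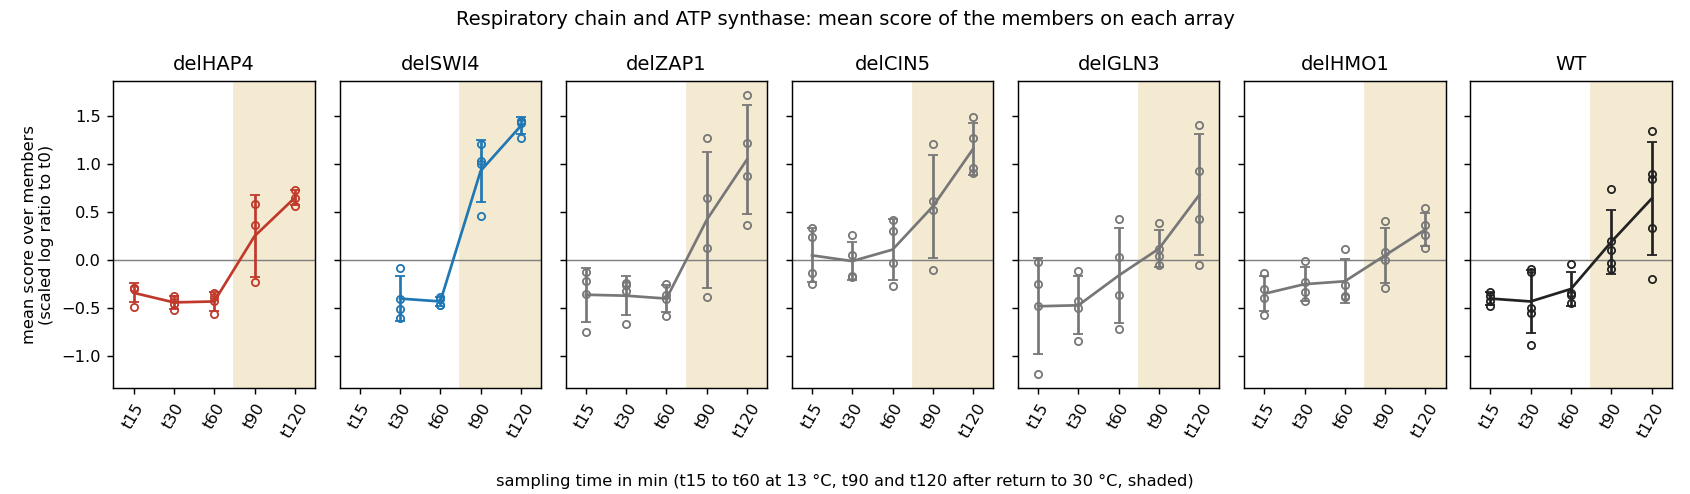
Score over the respiratory chain members (mean scaled log ratio to t0, vertical axis) on each array, by sampling time and strain, with 1 point per flask. The scores of delHAP4 stay below 0 at t15, t30 and t60 and, on 5 of 6 arrays, lie above 0 at t90 and t120, and those of delSWI4 at t120 (1.27 to 1.45) lie above those of delHAP4 (highest recovery score 0.73).

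The highest recovery scores as a strain belonged to delSWI4, with 0.93 ± 0.32 at t90 and 1.4 ± 0.09 at t120 (n = 4 each), and all of its 8 recovery arrays lay between 0.46 and 1.45. The t120 score was 1.16 ± 0.27 in delCIN5, 1.05 ± 0.57 in delZAP1, 0.68 ± 0.63 in delGLN3 and 0.32 ± 0.17 in delHMO1. delCIN5 did not share the low cold scores, with 0.05 ± 0.28 at t15 and values on both sides of 0 at t30 and t60 (4 of 8 arrays above 0). These scores are descriptions of each strain against its own t0, and the tests of single members follow.

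The complexes moved by unequal amounts on this scale. In delHAP4 cytochrome c had the lowest scores of the 5 sets in the cold, −2.04 ± 0.46 at t30 and −2.53 ± 0.27 at t60, and the highest one at t120, 2.22 ± 0.72. Complex III averaged −0.44 ± 0.25 at t60 and 0.84 ± 0.26 at t120, complex IV −0.28 ± 0.06 and 0.59 ± 0.18, and complex II −0.64 ± 0.1 and 0.61 ± 0.3. Complex V stayed nearest to 0, at −0.24 ± 0.31 at t60, −0.22 ± 0.33 at t90 and 0.38 ± 0.25 at t120. At t120 the WT values were 0.83 ± 0.5 for complex III, 0.66 ± 0.98 for complex IV, 0.56 ± 0.78 for complex V, 0.6 ± 0.86 for complex II and −0.13 ± 2.02 for cytochrome c, with a spread over flasks wider than in delHAP4.

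**Figure D2:**
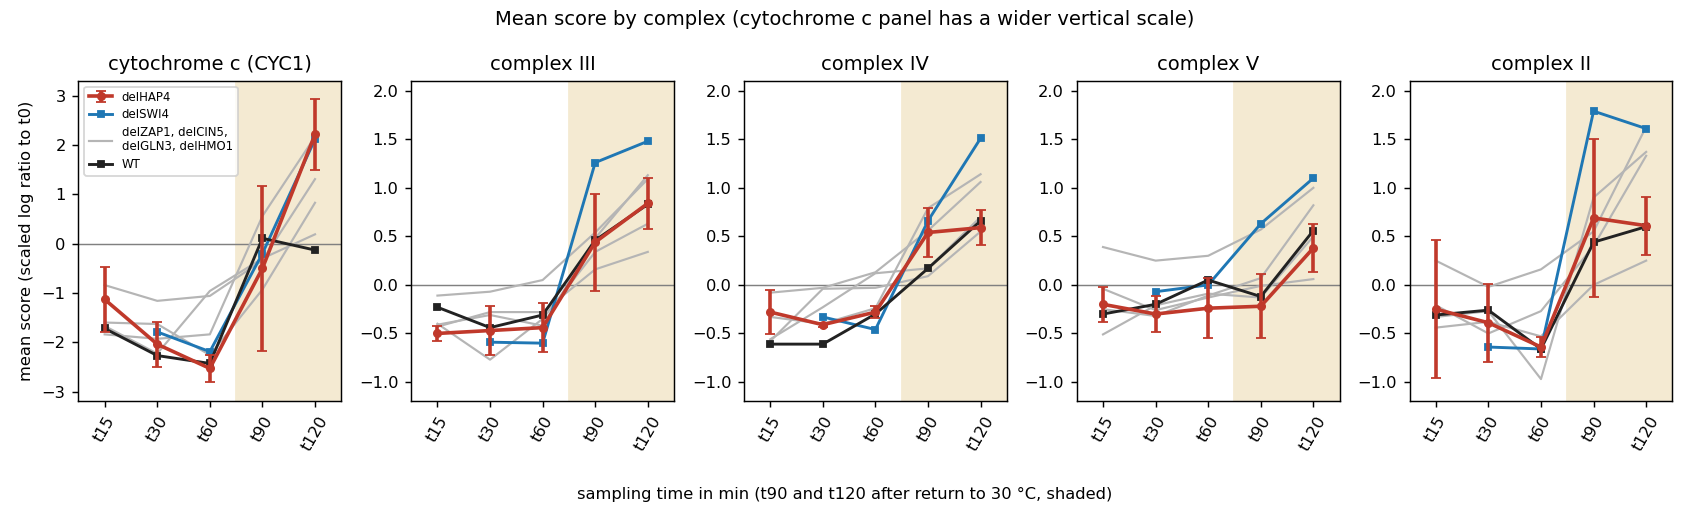
Mean score of each complex (scaled log ratio to t0, vertical axis, with a wider scale for cytochrome c) by sampling time, with lines for delHAP4 (error bars are SDs over flasks), delSWI4, WT and the other 4 strains in grey. Cytochrome c averages −2.53 in delHAP4 and −2.43 in WT at t60, and complex V changes least in delHAP4 (0.38 at t120).

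To set the recovery directly against the cold, the mean of t90 and t120 minus the mean of t30 and t60 was fitted for each gene. This contrast is called rewarming below. A flask's t0 enters both sides of it and cancels in part, not in full, because each array was scaled on its own and because delHAP4 flask 1 enters the cold side alone and some WT and delGLN3 flasks enter with some of the times. The cold and the recovery values taken on their own share their t0. In delHAP4, 15 of 32 tested members rose on rewarming and none fell, in limma at an adjusted p below 0.05, where 14.5% of all features rose and 17.2% fell. The median rewarming value was 1.05 over the members and −0.02 over all features, and 27 of the 32 were above 0. ATP17 had too few delHAP4 flasks at single times for the test. By complex, 7 of 9 members of complex III rose, 3 of 4 of complex II, 3 of 8 of complex IV, 1 of 10 of complex V, and CYC1.

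The count of 15 depended on single flasks. It was 9 without delHAP4 flask 2 and 6 without delHAP4 flask 3, which each leave the recovery with 2 flasks. QCR10, CYC1, COX7 and CYT1 kept their calls with each flask left out in turn, and the other 11 lost theirs without at least 1 flask.

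In the cold alone, 6 members fell in delHAP4 (CYC1, QCR10, QCR6, COX7, ATP16 and SDH2) and 1 rose (QCR9), where 14.0% and 17.4% of all features did so. At t15, 2 of 32 fell, QCR6 by 1.11 (adjusted p = 0.0148) and QCR10 by 0.92 (0.0345), against 3.55% of features, and none rose, against 8.03%. In recovery against t0, QCR10 rose and no other member passed the test, a count of 1 of 32 where 1.66% of features rose and 0.598% fell. Without the t90 array of flask 4, 5 members rose in recovery. Without flask 1 the cold count was 4. Without flask 2, 3 or 4 the t15 count was 0, and without flask 1 it was 1. Without flask 2 or 3 the recovery count was 0, and without flask 4 it was 2. The cold calls of CYC1, QCR10 and QCR6 were kept with each flask left out, and those of COX7, ATP16, SDH2 and QCR9 were not.

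At complex II, which oxidises succinate and is shared with the citric acid cycle, SDH2, SDH3 and SDH4 rose on rewarming in delHAP4. SDH2 encodes the iron-sulfur subunit. Its delHAP4 values ran from −1.84 to −0.15 in the cold (median −0.92) and from −0.33 to 1.68 in recovery (median 1.13), and both recovery values below 0 were from flask 4. The cold and recovery values therefore overlapped, and the fitted rewarming value was 1.64 ± 0.41 (SE, adjusted p = 0.00515). SDH3 and SDH4 encode the membrane anchors, and their rewarming values were 1.33 ± 0.32 (0.00423) and 1.43 ± 0.47 (0.0246). SDH4 ran from −1.69 to 0.64 in the cold and from −0.12 to 2.99 in recovery.

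SDH1, which encodes the flavoprotein subunit and has a close paralog in YJL045W, was marked by 1 array. Its delHAP4 values were 0.51, 2.05 and 0.11 at t90 and 0.67, −4.52 and 0.75 at t120, in flasks 2, 3 and 4. The t120 value of flask 3 lay far below the other strains' lowest t120 value of −0.86, and the remaining 5 values were within the other strains' recovery range of −2.04 to 3.35. The rewarming value of SDH1 in delHAP4 was 0.08 ± 0.61 (adjusted p = 0.934), with the widest standard error of the 4 complex II genes, and without flask 3 it was 0.69 ± 0.35 (0.17). Whether transcripts of paralogs add signal at the spots of SDH1, or of SDH3, SDH4, COX5A and CYC1, was not tested.

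Complex III passes electrons from ubiquinol to cytochrome c, and it had the most calls of the complexes on rewarming in delHAP4. QCR10, a small accessory subunit, had t30 values of −0.29, −1.04, −1.3 and −1.22 and t60 values of −1.05, −0.6, −1.75 and −0.95 in delHAP4 flasks 1 to 4. Its t90 values were 1.17, 1.34 and 0.74 and its t120 values 1.68, 1.48 and 0.67 in flasks 2 to 4. All 8 cold values were below 0 and all 6 recovery values above it, with no overlap. The rewarming value was 2.25 ± 0.27 (adjusted p = 2.16e-05), the cold value −1.03 ± 0.21 (0.00143) and the recovery value 1.23 ± 0.24 (0.00849).

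CYT1, the gene for cytochrome c1, ran from −1.44 to −0.09 in the cold and from −0.47 to 2.41 in recovery in delHAP4, where the value below 0 was that of t90 flask 4. Its rewarming value was 1.74 ± 0.4 (adjusted p = 0.00259). The core subunit genes QCR2 and COR1 rose by 1.2 ± 0.36 (0.0151) and 1.05 ± 0.32 (0.0181), RIP1 for the Rieske iron-sulfur protein by 1.1 ± 0.41 (0.0453), and QCR7, whose product lies beside cytochrome b, by 1.15 ± 0.36 (0.0209). The RIP1 call was lost with no replicate block, in 1 fit of all strains and without flask 1, 2 or 3, and the QCR7 call without flask 1, 2 or 4. COR1 ran from −1.69 to 0.47 in the cold and from −0.68 to 1.57 in recovery, so that its phases overlapped.

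QCR6, which encodes the acidic hinge subunit, fell in the cold by 0.96 ± 0.22 in delHAP4 (adjusted p = 0.00285), with all 8 values between −1.66 and −0.39. Its recovery values were 0.62, −0.81 and −0.88 at t90 and 1.15, −0.21 and 0.57 at t120, on both sides of 0. Its rewarming value was 1.08 ± 0.28 (0.006). The other 2 small subunit genes did not pass on rewarming: QCR8 had 0.47 ± 0.25 (0.159) and QCR9 −0.34 ± 0.28 (0.377). QCR9 was the 1 member that rose in the cold in delHAP4, by 0.63 ± 0.22 (0.0387), with 7 of 8 values above 0 and a range of −0.15 to 1.28. Its cold value did not pass in the other strains, but was of like size in delHMO1 (0.72 ± 0.28), delZAP1 (0.63 ± 0.3) and delCIN5 (0.53 ± 0.29). It was 0.19 ± 0.28 in WT, 0.17 ± 0.29 in delGLN3 and −0.07 ± 0.25 in delSWI4.

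CYC1, which encodes iso-1-cytochrome c, the soluble carrier between complexes III and IV, had the largest cold and rewarming values of the set in delHAP4. Its delHAP4 values in flasks 1 to 4 were −1.34, −2.31, −2.3 and −2.19 at t30 and −2.55, −2.65, −2.78 and −2.14 at t60. In flasks 2 to 4 they were 1.14, −0.44 and −2.2 at t90 and 2.47, 2.78 and 1.41 at t120. All t30 and t60 values lay well below 0 and all t120 values well above it. The t90 values spread in between, and the lowest, that of flask 4, was within the cold range.

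In WT flasks 0 to 4 CYC1 was −0.54, −2.27, −1.79, −3.98 and −2.77 at t30, and at t120 it was 0.21, 0.8, 2.52, −2.67 and −1.51. The WT values at t120 thus lay on both sides of 0, split by dye orientation: the shifted sample was in Cy5 in flasks 0, 1 and 2, above 0, and in Cy3 in flasks 3 and 4, below 0. In WT every Cy3 value also lay below every Cy5 value at t15, t30 and t60, and at t90 the orientations overlapped. In the cold CYC1 was likewise lower in the Cy3 flasks of delCIN5 at t15 and t30, delSWI4 at t30, and delZAP1 at t15 and t60. In those of delGLN3 and delHMO1 it was higher at t60, and in delHAP4 the orientations overlapped at t15, t30 and t60. In recovery CYC1 was lower in the Cy3 flasks of delCIN5 at t90 (−2.8 and −1.26, against 2.67 and 3.64 in its Cy5 flasks). At t120 it was lower in those of delCIN5 (0.14 and 1.18, against 2.82 and 4.55) and delSWI4 (1.57 and 0.58, against 3.69 and 2.64). It was higher in the Cy3 flasks of delGLN3 at t120 (2.62 and 1.2, against −3.31 and 0.26). The same held in delHMO1 at t120 (1.66 and 1.43, against 1.26 and 0.89), whose direction is not settled. In delZAP1 at t120 and delSWI4 at t90 the 2 orientations overlapped. In delHAP4 the t120 value was 2.78 in the Cy3 flask (flask 3), and 2.47 and 1.41 in the Cy5 flasks. The fitted cold value was −2.28 ± 0.32 in delHAP4 (adjusted p = 8.54e-05) and −2.4 ± 0.45 in WT (0.000234). The rewarming value was 3.22 ± 0.4 in delHAP4 (2.34e-05) and 2.39 ± 0.49 in WT (0.000383), and the difference between the strains of 0.84 had a 95% interval of −0.56 to 2.24 (adjusted p = 0.655). With a term for dye orientation this difference was 0.72 ± 0.67 (SE, adjusted p = 0.711).

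CYC1 fell in the cold in 6 of the 7 strains, with fitted values of −2.4 to −1.57, and was at −1.11 ± 0.47 in delHMO1 (adjusted p = 0.224). The call was lost in delCIN5 without flask 1, 3 or 4 and in delGLN3 without flask 3, 4 or 5. It was below 0 on 46 of 49 cold arrays of the strains other than delHAP4, and above 0 on 32 of their 50 recovery arrays. It rose on rewarming in 5 strains, with 3.25 ± 0.6 in delCIN5, 2.95 ± 0.4 in delSWI4 and 1.9 ± 0.35 in delZAP1 besides delHAP4 and WT.

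**Figure D3:**
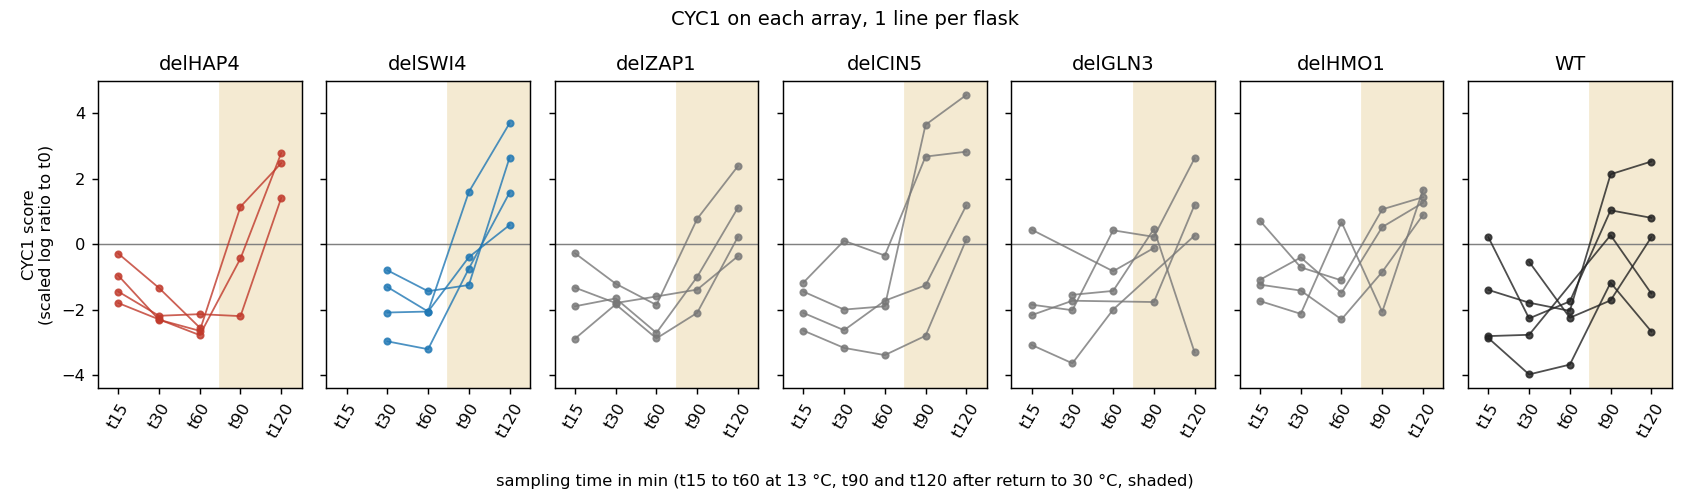
Scaled log ratio of CYC1 to t0 (vertical axis) on each array by sampling time, with 1 panel per strain and lines joining the measured times of a flask. The delHAP4 flasks reach −2.78 to −2.14 at t60 and 1.41 to 2.78 at t120, and WT flasks end between −2.67 and 2.52.

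Complex IV reduces oxygen, and its 8 nuclear subunits surround a catalytic core encoded in mitochondrial DNA, which was not analysed here. COX7, COX6 and COX13 rose on rewarming in delHAP4. COX7 ran from −1.18 to −0.07 in the cold and from 0.22 to 1.15 in recovery in delHAP4, with no overlap between the phases. It fell in the cold by 0.7 ± 0.2 (adjusted p = 0.0102) and rose on rewarming by 1.36 ± 0.25 (0.000458). COX6 ran from −0.75 to 0.26 in the cold and from −0.08 to 3.16 in recovery, with a rewarming value of 1.58 ± 0.38 (0.00398), and COX13 ran from −0.86 to 0.25 and from 0.12 to 1.29, with 1.2 ± 0.27 (0.0026).

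The rest of complex IV did not pass in delHAP4. COX12, whose product faces the intermembrane space, had a rewarming value of 1.06 ± 0.46 (adjusted p = 0.0881), with cold values of −1.44 to 1.15 and recovery values of −0.45 to 2.36. COX4, for a zinc-binding subunit, had 0.66 ± 0.32 (0.119), with −0.82 to 1.13 in the cold and −0.53 to 1.41 in recovery. COX5A, the isoform of subunit V made in the presence of oxygen, had 0.67 ± 0.34 (0.138), COX9 0.44 ± 0.32 (0.322) and COX8 0.38 ± 0.36 (0.45). All 8 fitted values of complex IV were above 0.

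Complex V, the ATP synthase, had 1 call on rewarming in delHAP4. It was ATP16, which encodes the delta subunit of the central stalk, with 1.2 ± 0.4 (adjusted p = 0.0266). ATP16 ran from −2.27 to 0.48 in the cold and from −1.11 to 2.21 in recovery, and its cold value was −0.95 ± 0.32 (0.0275). Its neighbour in the stalk, ATP15 for the epsilon subunit, had a rewarming value of 1.13 ± 0.47 (0.0726).

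The genes for the catalytic head, and that for the gamma subunit of the central stalk, did not pass in delHAP4. ATP1 (alpha) had a rewarming value of 0.57 ± 0.41 (adjusted p = 0.316), ATP2 (beta) 0.17 ± 0.55 (0.847) and ATP3 (gamma) 0.1 ± 0.39 (0.871). ATP2 ran from −2.67 to 1.47 in the cold and from −2.84 to 1.59 in recovery, among the widest ranges over flasks, and ATP3 from −1.7 to 0.96 and from −1.11 to 1.5. The peripheral stalk genes were near 0, with 0.31 ± 0.28 for ATP4, −0.16 ± 0.29 for ATP5, −0.24 ± 0.35 for ATP7 and −0.19 ± 0.28 for ATP14, and the membrane subunit gene ATP20 had −0.11 ± 0.3 (adjusted p from 0.431 for ATP4 to 0.811 for ATP20). Of ATP17, for another membrane subunit, delHAP4 had 3 cold values between −1.82 and −0.2 and 4 recovery values between −0.04 and 0.95.

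In WT, 14 of 33 members rose on rewarming and none fell, where 18.2% of all features rose and 19.2% fell. They were QCR2, CYC1, QCR10, QCR6, COX6, COX12, CYT1, SDH2, QCR7, COX7, COX4, SDH3, ATP15 and ATP17. The median was 0.69 over the members and −0.03 over all features. QCR6 had the largest value after CYC1, 2.15 ± 0.47 (adjusted p = 0.000757), and QCR2 had 1.37 ± 0.25 (0.000126). QCR10 had 1.71 ± 0.35 (0.000406), ATP15 1.47 ± 0.51 (0.0243) and ATP17 0.9 ± 0.32 (0.0259). Without WT flask 2 the count was 5. QCR2, CYC1, QCR10, QCR6 and COX6 kept their calls with each flask left out in turn, and the other members did not.

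In WT recovery against t0, QCR7 rose by 1.13 ± 0.29 (adjusted p = 0.0166), QCR10 by 1.15 ± 0.31 (0.0238) and QCR2 by 0.8 ± 0.22 (0.0274), 3 of 33 members where 3.63% of features rose and 2.51% fell. QCR7 ran from −0.16 to 3.58 over 10 WT recovery arrays, QCR10 from 0.14 to 2.76 over 9. The count was 0 without WT flask 2 and 1 without WT flask 4. The QCR7 call was lost without WT flask 1 or 2 and on Ontario chips alone, that of QCR10 without flask 1, 2 or 4, and that of QCR2 without flask 0, 2, 3 or 4, on Ontario chips alone and in 1 fit of all strains. In the cold CYC1 fell in WT, and no other member passed, where 12.6% of features fell and 16.6% rose. At t15 none of the 33 passed limma's test in WT, 5 did at an unadjusted p below 0.05, and 10.8% of features were called. Without WT flask 1, 2 members passed at t15, and without WT flask 0, 1 did.

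Among the members that did not pass limma's test in WT recovery, QCR6 came nearest, at 1.22 ± 0.41 (adjusted p = 0.0797). CYT1 had 0.88 ± 0.34 (0.124). The 2 members with the smallest p in each of complexes II, IV and V did not pass either. Their fitted values were 0.66 ± 0.3 for SDH2 (adjusted p = 0.206), 0.6 ± 0.3 for SDH4 (0.242), 0.71 ± 0.27 for COX12 (0.124), 0.71 ± 0.29 for COX6 (0.148), 0.72 ± 0.28 for ATP17 (0.125) and 0.46 ± 0.35 for ATP3 (0.471). CYC1 was at −0.01 ± 0.43 (0.99), with WT values from −2.67 to 2.52.

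The rewarming contrast in the other 5 deletion strains was chosen after seeing the data. In delSWI4, 26 of 33 members rose, where 21.4% of features rose, with all 9 members of complex III, all 4 of complex II, 6 of 8 of complex IV and 6 of 11 of complex V among them. In delZAP1, 17 rose, where 16.7% of features did: RIP1, CYT1, CYC1, SDH3, SDH1, QCR7, ATP16, COX6, QCR10, ATP15, SDH4, SDH2, COX7, COX13, COX5A, QCR2 and QCR6. In delCIN5, 12 rose, where 13.3% of features did: CYT1, CYC1, COX7, COX6, SDH2, QCR10, ATP16, ATP15, COX9, SDH3, COX12 and SDH1, and 7 without delCIN5 flask 4.

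In delGLN3, 3 of 33 rose, a share near the 8.86% of all features that did. They were CYT1 by 2.37 ± 0.62 (adjusted p = 0.0103), QCR2 by 1.64 ± 0.43 (0.0132) and COR1 by 1.1 ± 0.34 (0.0276). The count was 0 without delGLN3 flask 4, 1 without flask 5, 5 without flask 1 and 5 without the t60 array of flask 2. In delHMO1 none passed limma's test, 10 had an unadjusted p below 0.05, and 1.61% of features were called. Without flask 3, which holds both arrays that resembled the other phase, 9 members of delHMO1 rose, and with the sign of delHMO1 flask 2 or flask 4 turned none passed in the cold, in recovery or on rewarming.

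**Figure D4:**
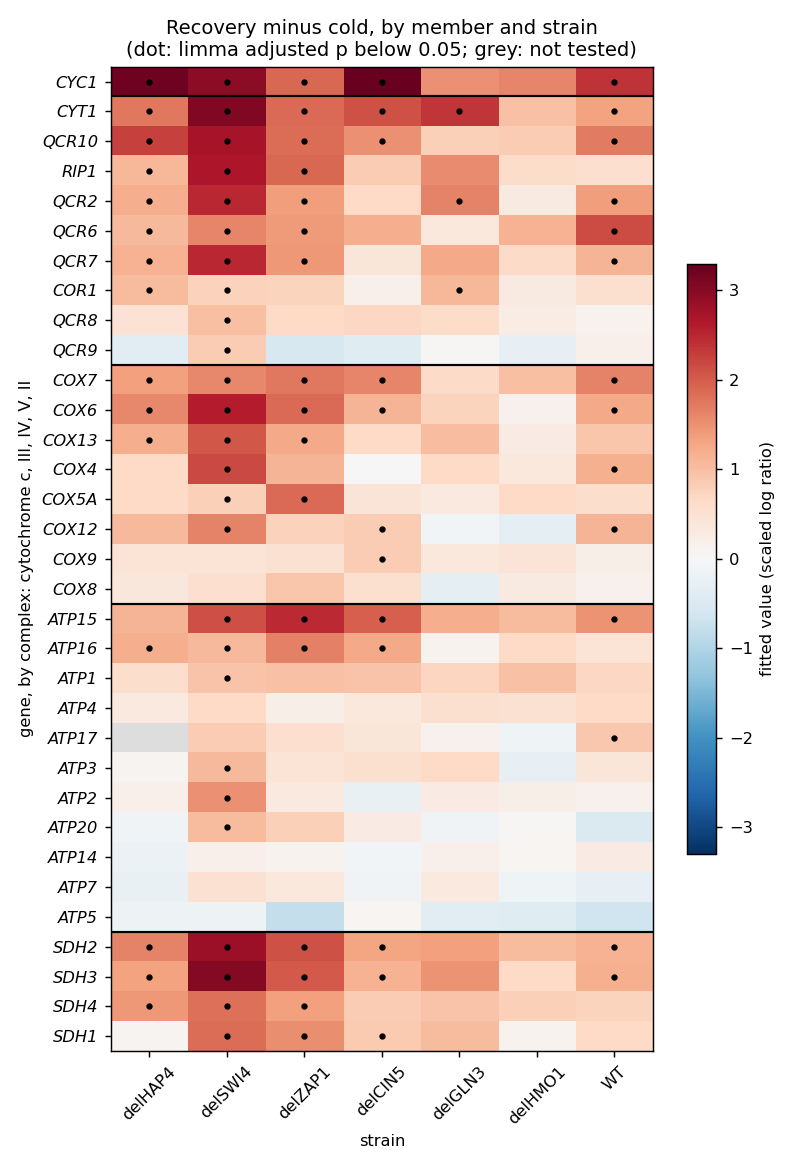
Fitted rewarming value (mean of t90 and t120 minus mean of t30 and t60, scaled log ratio, colour) of each member (down the page, by complex) in each strain (across), with a dot where limma's adjusted p is below 0.05 and grey where not tested. The strongest column is delSWI4 with 26 dots, and the palest block is complex V.

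Over the 7 strains 28 of the 33 members rose on rewarming in at least 1 and none fell in any, where 34.5% of all features rose in at least 1 strain and 33.2% fell in at least 1. CYT1 rose in 6 strains. COX6, COX7, CYC1, QCR10, QCR2, SDH2 and SDH3 rose in 5 strains, and ATP15, ATP16, QCR6 and QCR7 in 4. COR1, COX12, COX13, RIP1, SDH1 and SDH4 rose in 3. The members that passed in no strain were ATP14, ATP4, ATP5, ATP7 and COX8, of which 4 encode the peripheral stalk of the ATP synthase. Their fitted values ran from −0.19 to 0.28 for ATP14, from 0.2 to 0.67 for ATP4, from −0.79 to 0.06 for ATP5, from −0.26 to 0.49 for ATP7 and from −0.33 to 0.91 for COX8.

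The members that rose in a single strain were ATP1, ATP2, ATP3, ATP20, QCR8 and QCR9 in delSWI4, ATP17 in WT and COX9 in delCIN5. Of these, the calls of ATP1, ATP2, ATP20, QCR8, QCR9, ATP17 and COX9 were lost without at least 1 flask. ATP2 had 1.52 ± 0.45 in delSWI4 (adjusted p = 0.00967), and ATP20 had 1.05 ± 0.31 (0.00922). COX9 had 0.83 ± 0.26 in delCIN5 (0.0228). COX4 rose in delSWI4 and WT, and COX5A in delSWI4 and delZAP1, where it had 1.87 ± 0.52 (0.0079). Both COX5A calls and the WT call of COX4 were lost without at least 1 flask.

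In the cold 33 members were tested in each other deletion strain. The counts in delZAP1, delGLN3 and delCIN5 lay near or below the shares of all features. In delSWI4 7 members fell, ATP15, COX7, CYC1, CYT1, QCR10, QCR6 and SDH2, where 13.6% of features fell, and 3 did without delSWI4 flask 1. In delZAP1 ATP16, CYC1 and SDH3 fell, where 10.7% of features did, and 1 did without flask 2, 3 or 4. In delGLN3 CYC1 and QCR2 fell (7.53% of features), with 1 call without flask 3 and 0 without flask 4 or 5, and in delCIN5 CYC1 fell (6.13%), with 2 calls without flask 1, CYC1 not among them, 2 without flask 2 and 0 without flask 3 or 4. In delHMO1 none passed limma's test (0.33% of features called), 5 had an unadjusted p below 0.05, and 3 passed without the arrays that resembled the other phase.

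In recovery against t0, 18 members rose in delSWI4 (7.6% of features), 4 in delZAP1 (COX6, QCR10, RIP1 and SDH1, 3.58%) and 4 in delCIN5 (COX6, CYT1, QCR10 and SDH2, 2.38%). The delZAP1 count was 9 without flask 2, 2 without flask 4 and 0 without flask 5. The delCIN5 count was 11 without flask 2 and 1 without flask 3 or 4. In delGLN3 none passed limma's test and 5 had an unadjusted p below 0.05 (3.9% of features called), with 2 calls without flask 1. In delHMO1 none passed limma's test and 1 had an unadjusted p below 0.05 (0.033% of features called).

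Setting delHAP4 directly against WT asks whether the loss of the Hap4 subunit altered these responses. None of the 32 tested members passed limma's test at t15 (0.0498% of features called), in the cold (0.201%), in recovery (0.0342%) or on rewarming (1.06%), and none had an unadjusted p below 0.05 in any of these 4. The median difference on rewarming was 0.12 over the members and −0.03 over all features. The 95% intervals of single members on rewarming reached down to −2.33 and up to 2.24, so a missed threshold does not show that the strains responded alike. Every delHAP4 flask was grown with G418 and no WT flask was, and all delHAP4 slides were uncoated and all WT slides coated. Drug, coating and deletion therefore cannot be told apart in this comparison. Chip type differed in part, since WT flasks 0 and 1 were on GCAT chips and all delHAP4 flasks on Ontario chips.

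The members with the smallest p on rewarming in each complex were as follows, as delHAP4 minus WT with 95% intervals. QCR6 differed by −1.07 (−2.33 to 0.19, adjusted p = 0.481) and QCR9 by −0.51 (−1.37 to 0.36, 0.662). ATP16 differed by 0.74 (−0.34 to 1.81, 0.599) and ATP5 by 0.51 (−0.39 to 1.4, 0.675). SDH4 differed by 0.7 (−0.44 to 1.85, 0.644) and SDH1 by −0.59 (−1.87 to 0.69, 0.754), and COX4 by −0.51 (−1.58 to 0.56, 0.746) and COX6 by 0.34 (−0.68 to 1.36, 0.836). Without delHAP4 flask 3 the differences of SDH4, SDH1 and COX6 changed sign, to −0.02, 0.02 and −0.17. The QCR6 values in recovery ran from −0.88 to 1.15 in delHAP4 (median 0.18) and from −1.58 to 3.96 in WT (median 1.0), so the strains overlapped.

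Setting delHAP4 against the mean of the other 6 strains uses more arrays and shares its delHAP4 values with the comparison against WT. None of the 32 members passed limma's test in the cold (0.0516% of features called), in recovery (0.0%) or on rewarming (0.356%). At an unadjusted p below 0.05 there were 0 members in the cold, 2 in recovery (SDH1 and ATP14) and 1 on rewarming (SDH1). The 5 other deletion strains were grown with G418 too. Against delSWI4 flasks 2 to 4 alone, whose slides were uncoated like those of delHAP4, no member passed in the cold, in recovery or on rewarming.

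In recovery SDH1 differed by −0.89 (95% interval −1.74 to −0.04, adjusted p = 0.999), a value that rests on the t120 array of flask 3, and without flask 3 it was −0.34 (adjusted p = 0.998). ATP14 differed by −0.68 (−1.35 to −0.01, 0.999). Its delHAP4 recovery values were −0.13, −0.83 and −0.45 at t90 and 0.13, −1.25 and 0.34 at t120, against −0.8 to 1.4 with a median of 0.29 in the other strains. The ranges overlapped, with 4 of 6 delHAP4 values below 0.

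The other members given by the smallest p in recovery all had intervals that included 0. They were SDH2 at −0.48 (−1.4 to 0.44), QCR6 at −0.49 (−1.45 to 0.47), QCR8 at −0.21 (−0.82 to 0.4), COX6 at 0.39 (−0.42 to 1.19), COX8 at −0.36 (−1.21 to 0.49), ATP3 at −0.7 (−1.57 to 0.17) and CYC1 at 0.51 (−0.67 to 1.69), all with an adjusted p of 0.999. Recovery values of ATP3 ran from −1.11 to 1.5 in delHAP4 (median −0.33) and from −2.48 to 2.7 in the other strains (median 0.38). Those of QCR8 ran from −0.46 to 0.44 in delHAP4 and from −1.72 to 2.24 in the other strains, and those of COX8 from −1.61 to 1.31 and from −2.55 to 2.7.

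In the cold the smallest p of the set belonged to QCR10, at −0.68 (−1.44 to 0.09). Its 8 delHAP4 values lay between −1.75 and −0.29 with a median of −1.05, and the 49 of the other strains between −2.64 and 1.49 with a median of −0.46. The differences were −0.39 for COR1 (−0.95 to 0.17), −0.46 for SDH2 (−1.3 to 0.37), −0.2 for SDH4 (−0.94 to 0.55), −0.38 for COX8 (−1.15 to 0.38), −0.23 for COX13 (−0.96 to 0.49), −0.36 for ATP14 (−0.97 to 0.26), −0.59 for ATP2 (−1.83 to 0.64) and −0.47 for CYC1 (−1.54 to 0.6), each with an adjusted p of 0.999. All of these intervals included 0.

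**Figure D5:**
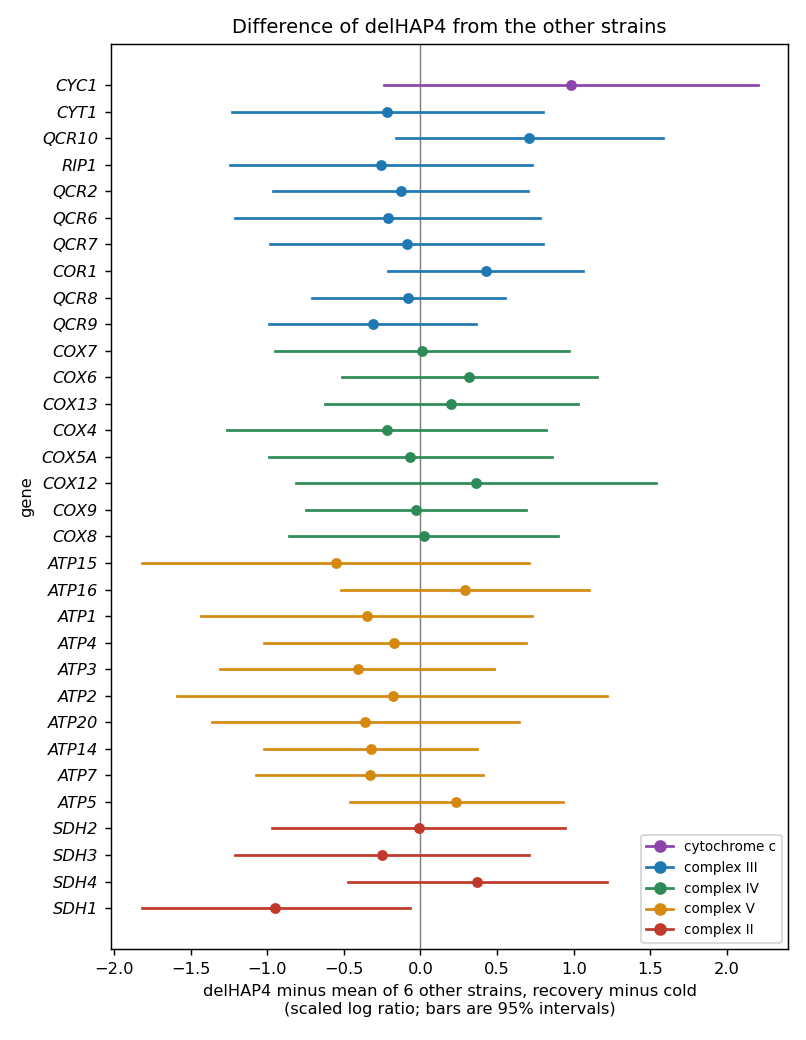
Rewarming value in delHAP4 minus the mean of the other 6 strains (horizontal axis, scaled log ratio) for each tested member, with 95% intervals and colours by complex. All intervals except that of SDH1 (−1.82 to −0.07) include 0, and SDH1 rests on 1 array.

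On rewarming SDH1 differed by −0.95 (−1.82 to −0.07, adjusted p = 0.496), QCR10 by 0.71 (−0.16 to 1.58, 0.679) and CYC1 by 0.98 (−0.24 to 2.2, 0.691). With t120 alone in place of both recovery times, SDH1 passed in recovery at −1.98 (adjusted p = 0.0338), with the −4.52 of flask 3 among its 3 values.

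Each of the other 6 strains was set against the mean of the rest on rewarming in the same way, a comparison chosen after seeing the data. In delSWI4, 6 members of 32 rose more than in the mean of the rest, where 1.78% of features did: SDH3 by 1.73 (95% interval 0.85 to 2.61, adjusted p = 0.0146), COX6 by 1.47 (0.7 to 2.23, 0.0183), QCR2 by 1.39 (0.63 to 2.15, 0.0278), QCR7 by 1.5 (0.65 to 2.35, 0.0332), RIP1 by 1.59 (0.69 to 2.5, 0.0336) and QCR9 by 1.06 (0.45 to 1.68, 0.0385). In delHMO1, COX6 was lower on rewarming than in the mean of the rest, at −1.37 (−2.13 to −0.61, 0.0266), where 2.44% of features did.

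The delSWI4 recovery values behind these calls were above 0 in every flask. QCR2 had 2.05, 1.99, 1.91 and 1.39 at t90 and 1.29, 1.84, 2.66 and 2.63 at t120 in flasks 1 to 4. QCR7 had 1.34, 1.16, 0.93 and 2.03 at t90 and 2.92, 2.07, 2.37 and 2.81 at t120. SDH3 was split between flasks, with 0.99, 2.83, 0.93 and 2.55 at t90 and 0.86, 3.54, 1.35 and 3.57 at t120, so that flasks 2 and 4, with the shifted sample in Cy3, were the high ones at both times, and flasks 1 and 3 carried it in Cy5. With a term for dye orientation the SDH3 difference was 1.72 ± 0.42 (SE, adjusted p = 0.00971). COX6 was highest in flask 3, with 0.9, 1.14, 3.13 and 0.57 at t90 and 1.58, 1.66, 3.91 and 1.04 at t120.

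The delSWI4 count was 1 without delSWI4 flask 1 or flask 2, 2 without flask 3, 9 and 8 with the sign of delHMO1 flask 2 or flask 4 turned, and 0 when arrays were taken as independent of their flask (no replicate block). Slides of delSWI4 flasks 2 to 4 were uncoated and those of flask 1 coated. The score over all members in flask 1 was 1.0 at t90 and 1.43 at t120, inside the ranges of the uncoated flasks (0.46 to 1.21 and 1.27 to 1.45).

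In delHMO1 the count was 0 with no replicate block and without the arrays that resembled the other phase. It was likewise 0 without delHMO1 flask 1 or 3, and 2 without delHMO1 flask 2, delCIN5 flask 2 or delZAP1 flask 2, and with the sign of delHMO1 flask 2 or flask 4 turned it was 10 and 9. In delZAP1, delCIN5, delGLN3 and WT no member passed limma's test against the mean of the rest, where 0.642%, 0.0356%, 2.07% and 3.3% of features were called in either direction. At an unadjusted p below 0.05 there were 2 members in delZAP1, 2 in delCIN5, 5 in delGLN3 and 2 in WT. Leaving out delZAP1 flask 2 gave 1 call in delZAP1, leaving out delGLN3 flask 1 gave 2 in delGLN3, and leaving out WT flask 0 gave 1 in WT.

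The genes of the regulators themselves gave few calls. HAP4 had a rewarming value of 1.07 ± 0.33 in delHAP4 (adjusted p = 0.0196), in cells that lack the gene. Its values there ran from −1.45 to 0.26 in the cold (median −0.34) and from −0.27 to 1.74 in recovery (median 0.37), and a ratio of signals at its spots shows neither a level nor its absence. In WT the HAP4 rewarming value was −0.03 ± 0.51. The value at the HAP4 spots rose on rewarming in delSWI4, by 1.93 ± 0.37 (0.000295), and in delZAP1, by 0.89 ± 0.29 (0.0237). It fell in the delSWI4 cold by 0.96 ± 0.35 (0.0469). These spots gave a called rise in delHAP4 too, and whether the values in delSWI4 and delZAP1 reflect HAP4 transcript was not tested.

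The DNA-binding subunit genes HAP2, HAP3 and HAP5 and the heme-responsive activator gene HAP1 did not pass on rewarming in delHAP4, with values of −0.55, −0.44, 0.75 and −0.33. ROX1, which encodes a heme-dependent repressor of hypoxic genes, was at 0.07 ± 0.45. In WT HAP2 fell by 0.76 (adjusted p = 0.0392) and HAP5 rose by 0.77 (0.0376) on rewarming, and ROX1 fell in the cold by 1.25 (0.00809). ROX1 fell in the delSWI4 cold by 2.08 ± 0.39 (0.000504) and rose on rewarming in delSWI4, by 2.26 ± 0.41 (0.000156), and in delCIN5, by 1.7 (0.000759). None of the 6 passed the test of delHAP4 against WT or against the other strains. The smallest p among these was that of ROX1 on rewarming against the other strains, −1.41 (95% interval −2.39 to −0.42, adjusted p = 0.283).

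Around the chain itself the directions were mixed, and the counts that follow stand beside 14.5% of all features that rose and 17.2% that fell on rewarming in delHAP4, and 18.2% and 19.2% in WT. Of 8 isoform and additional subunit genes tested on rewarming in delHAP4, CYC7 for iso-2-cytochrome c rose by 2.41 (adjusted p = 0.000271), STF2, for a factor that stabilises the inhibited ATP synthase, rose by 3.51 (0.000468), and YJL045W fell by 1.17 (0.0299). COX5B, the hypoxic isoform of subunit V, had too few delHAP4 flasks at t90 for the test. Its delHAP4 values ran from −2.38 to −1.31 at t60 (n = 3) and from 0.12 to 2.74 at t120 (n = 2). In WT 3 of 9 rose, COX5B by 4.17 (4.07e-07), STF2 by 2.55 and CYC7 by 1.22, and RCF2, SHH4 and YJL045W fell. The paralog pair SDH1 and YJL045W thus had fitted values of 0.08 (0.69 without flask 3) and −1.17 in delHAP4.

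Of 16 electron donor and ubiquinone genes, COQ4, COQ7 and NDI1 rose on rewarming in delHAP4, by 2.49, 0.94 and 1.15, and NDE1 and COQ8 fell, by 2.67 and 1.06, shares near those of all features. In WT COQ5, COQ7, COQ4 and NDI1 rose, and COQ10, COQ1, NDE1 and COQ8 fell. The internal NADH dehydrogenase gene NDI1 and the external one, NDE1, therefore had opposite directions in both strains. Of 8 heme synthesis genes HEM3 and HEM13 fell in delHAP4, by 2.74 and 1.86, and in WT, by 1.78 and 2.55, and none rose. A count of 2 of 8 is close to the share of all features that fell.

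Of 6 carrier genes the outer membrane porin gene POR1 rose by 1.86 in delHAP4 and 0.91 in WT, and the phosphate carrier gene MIR1 fell by 1.47 in delHAP4 and 1.38 in WT, again near the shares of all features. Of 51 assembly and expression factor genes tested in delHAP4, 12 rose on rewarming and 4 fell. SCO1, a copper chaperone of complex IV, rose by 2.43, PET191 by 1.68 and COA1 by 1.28, and PET309, a translation activator of mitochondrial COX1, fell by 2.2. In WT 7 of 53 rose and 12 fell, with SCO1 at 1.85 and PET309 at −2.29. In each of these lists no gene passed limma's test for delHAP4 against WT, or against the other strains, in any phase. Over these lists and the regulators, the genes with an unadjusted p below 0.05 against WT numbered 5 of 97 at t15 (5.61% of all features), 5 of 96 in the cold (8.35%), 2 of 96 in recovery (7.57%) and 13 of 95 on rewarming (13.4%). Against the other strains they numbered 4 of 96 in the cold (3.37%), 1 of 94 in recovery (3.78%) and 9 of 93 on rewarming (9.0%).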

How the data were processed

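Values were analysed as the authors deposited them: each is a score, which the titles and values show to be a scaled log ratio to t0. The submitters' processing notes name limma, and its version, the background correction and the filters are not given in the sources used here. The scaled median absolute deviation of an array lay between 0.997 and 1.003 and its median between −0.051 and 0.085. They are therefore no plain log2 ratios, as the plan had assumed, and no folds are given. Locus tags of the gene table were found for 5674 of the 6178 features and not for 504, and 3.95% of values were missing. Columns with no sample numbered 0. Spot intensities were not used here, and precision is limited by the number of arrays.

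The fits in limma 3.58.1 (R 4.3.3) had a mean per strain and time, flask as a random block (correlation 0.11 to 0.4 by strain) and moderated variances. P-values were adjusted by Benjamini-Hochberg over all features with at least 2 flasks per group, and called at an adjusted p below 0.05. Strains were fitted alone, delHAP4 with WT, and all 7 together. Other steps used Python 3.11.15, numpy 2.4.6, pandas 2.3.3 and matplotlib 3.10.9. Members and gene lists were chosen with earlier results of these data known. All 33 members may be named. Given in full are the 2 per complex with the smallest p in delHAP4 minus other strains (cold, recovery), delHAP4 minus WT (rewarming) and WT recovery, and of other lists up to 4 called genes and all of HAP1 to HAP5 and ROX1.

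The fits were tested on simulated data with 100 features changed by 1 unit and 100 by 2 units. On rewarming, changes of size 2 were found in 70 of 100 cases for delHAP4, 34 of 100 for delHAP4 minus WT and 69 of 100 for delHAP4 minus other strains, and changes of size 1 in 15, 2 and 9 of 100. The simulation used 1 flask correlation and the same number of changed features in every comparison. In the data the fitted correlations and the numbers of called features differed, so these rates need not hold there. Alternatives were no replicate block, a dye term, centring, centring and scaling, complete features, robust moderation, each flask or strain left out, Ontario chips alone, 1 fit of all strains, an adjusted p below 0.01, the 4 unlike arrays left out, delHMO1 flasks with their sign turned, uncoated slides alone, and 1 time per phase. COX19, COA2, COA3, SDH6, STF1, ATP18, ATP19, TIM11 and COX26 were not analysed here.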

Additional observations from a re-analysis of the deposited data

Results flagged for a closer look

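Among 192 sets of flask scores by strain, time and complex, 6 held 1 flask far from the others of its group, where chance gives about 1 in 20. CYC1 in delHAP4 at t30 was −1.34 in flask 1, against −2.31 to −2.19 in the others. The score over all members in delHAP4 at t15 was −0.49 in flask 4, against −0.3 to −0.29, and in delSWI4 at t120 it was 1.27 in flask 4, against 1.43 to 1.45. In delGLN3 the complex III score at t15 was 0.11 in flask 3, against −0.59 to −0.54. The delGLN3 complex V score at t15 was −1.13 in flask 4, against −0.32 to −0.28, and at t90 it was 0.36 in flask 3, against −0.35 to −0.26.

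On rewarming 7 members differed between 1 strain and the mean of the rest by limma's test of the difference. Relative to that mean, SDH3 (1.73), RIP1 (1.59), QCR7 (1.5), COX6 (1.47), QCR2 (1.39) and QCR9 (1.06) rose more in delSWI4, and COX6 was lower in delHMO1 (−1.37), whose direction is not settled.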

How the results depend on the processing

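The 3 comparisons of delHAP4 with the other strains and the 4 with WT had 0 called members under every alternative, except 1 (SDH1) in recovery with t120 alone. Centring the arrays, centring and scaling them, and robust moderation kept every count of called members within 1.5 times the reported one. With no replicate block, the counts were 1 for WT t15, 4 for WT cold, 2 for delHAP4 recovery, 4, 10 and 7 for delCIN5 cold, recovery and rewarming, 4 for delHMO1 cold, 11 for delSWI4 cold, 5 and 8 for delZAP1 cold and recovery, and 0 for delSWI4 and for delHMO1 against the other strains. With a dye term they were 3 for WT t15, 2 for WT cold, 3 for delHAP4 recovery, 2 and 8 for delCIN5 cold and recovery, and 2 for delHMO1 cold. Over features measured on every array, where fewer members are tested, they were 1 for WT t15, 1 for WT recovery, 2 for delCIN5 cold, 1 for delGLN3 cold, 1 for delGLN3 rewarming, 1 for delSWI4 and 0 for delHMO1 against the other strains. On Ontario chips alone they were 2 for WT t15 and 3 for WT cold. In 1 fit of all strains they were 2 for WT t15, 3 for WT cold, 0 and 3 for delHAP4 t15 and cold, 2 for delCIN5 cold, 1 and 10 for delGLN3 recovery and rewarming, 1 and 1 for delHMO1 cold and rewarming, 3 for delSWI4 cold and 7 for delZAP1 recovery. At an adjusted p below 0.01 they were 0 and 8 for WT recovery and rewarming, 0, 3 and 9 for delHAP4 t15, cold and rewarming, 0, 1 and 6 for delCIN5 cold, recovery and rewarming, 0 and 0 for delGLN3 cold and rewarming, 4 for delSWI4 cold, 1 and 2 for delZAP1 cold and recovery, and 0 for delSWI4 and for delHMO1 against the other strains. Without the 4 arrays that resembled the other phase they were 5 for delHAP4 recovery, 5 for delGLN3 rewarming, 3 and 9 for delHMO1 cold and rewarming, and 0 for delHMO1 against the other strains, which was 10 with the sign of delHMO1 flask 2 turned and 9 with that of flask 4. Leaving out each flask in turn, the counts ranged from 0 to 2 for WT t15, from 0 to 3 for WT recovery, from 5 to 14 for WT rewarming, from 0 to 1 for delHAP4 t15, from 4 to 5 for delHAP4 cold, from 0 to 2 for delHAP4 recovery and from 6 to 14 for delHAP4 rewarming. They ranged from 0 to 2, 1 to 11 and 7 to 10 for delCIN5 cold, recovery and rewarming, from 0 to 2, 0 to 2 and 0 to 5 for delGLN3 cold, recovery and rewarming, from 0 to 9 for delHMO1 rewarming, from 3 to 10 for delSWI4 cold, and from 1 to 3 and 0 to 9 for delZAP1 cold and recovery. Against the other strains they ranged from 0 to 1 for WT and for delZAP1, from 0 to 2 for delGLN3 and for delHMO1, and from 1 to 9 for delSWI4. The causes of these shifts were not tested. Among single members, 13 values changed sign under an alternative. CYC1 in WT recovery ranged from −0.60 to 0.47 over the flasks left out, and was 0.47, 0.14 and 0.17 without WT flasks 3, 4 and 0. In delHAP4 minus WT rewarming the ranges over flasks left out were −0.17 to 0.65 for COX6, −0.93 to 0.02 for SDH1 and −0.02 to 1.32 for SDH4, each changing sign without delHAP4 flask 3, and COX6 was −0.05 on Ontario chips. In delHAP4 minus other strains in the cold they were −1.08 to 0.06 for ATP2 and −0.39 to 0.10 for SDH4, changing sign without delHAP4 flask 2 and flask 4, and COX13 was 0.21 against uncoated delSWI4 flasks. In recovery they were −0.16 to 0.76 for COX6 and −0.67 to 0.13 for COX8, changing sign without delHAP4 flask 3, and COX6 was −0.61 against uncoated delSWI4 flasks. Mean scores over all members moved by less than 1 SD between flasks under every alternative tried, though those near 0 in delCIN5 at t15 and t30, delGLN3 at t60 and delHMO1 at t90 changed sign under at least 1. The number of flasks limits these counts, and the scale gives no signal over background.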
